A study of Arabidopsis thaliana with 12 samples.

Results

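Arabidopsis thaliana roots collected 7 d after treatment with the rhizobacterium Azospirillum brasilense Az39 were compared with roots collected 7 d after treatment with saline, over all genes with enough reads to test. The comparison rested on 4 of the 12 libraries of the study, 2 biological replicates per treatment, which were taken by their labels without using any expression value. Of the 21200 genes in the count table, 18867 passed the filter on low counts and were tested, and 469 had no read in any library. All plants were wild-type Columbia seedlings on vertical plates of MS nutrient agar with 1% sucrose, with days of 16 h light and 8 h dark. At 4 days after planting the seedlings received 2 uL of washed Az39 cells in 0.9% saline at an optical density (OD595) of 1, or 2 uL of the saline alone. The study also held roots treated with an -ipdc mutant of the same species, and all 3 treatments at 24 h, again with 2 libraries each. Every library was made from a pool of at least 50 whole root systems, so the values average over plants and over all root cell types.

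Azospirillum brasilense lives on and in root surfaces of grasses and many other plants, and is used as an inoculant that changes root branching and root hair growth. It makes the plant hormone auxin, mainly through indole-3-pyruvate decarboxylase, the enzyme that gives the ipdc mutant its name. Roots perceive bacteria through pattern receptors, which set off hormone pathways such as jasmonate, salicylic acid and ethylene. In the jasmonate pathway, lipoxygenases, allene oxide synthase, allene oxide cyclases and OPR3 make the hormone from membrane lipids. The active form, jasmonoyl-isoleucine, causes JAZ repressor proteins to be destroyed, which frees MYC2 and related transcription factors, and these in turn switch on the JAZ genes and the enzymes that break the hormone down.

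The libraries of the comparison held 18773891 and 19330423 counts on genes for saline and 17212991 and 16708899 for Az39, and the 2 ipdc libraries at 7 d held 15424136 and 14141640. Spearman's rho between the replicates of a group, across the 18867 genes, was 0.98 for saline and 0.969 for Az39. Of the 20 root cell type markers listed, 19 were detected well enough to test, and the most abundant gene in each of these libraries was PYK10, the root beta-glucosidase of endoplasmic reticulum bodies. Genes of photosynthesis, a sign of leaf material, made up 0.107% and 0.141% of counts in the saline libraries and 0.097% and 0.147% in the Az39 libraries, and genes of seed storage made up 0.0734% and 0.00351% against 0.00706% and 0.0546%. Neither share separated the treatments. None of the 24 photosynthesis genes or the 10 seed genes was called by edgeR, DESeq2 or limma-voom, and 0 of them had an unadjusted p under 0.05. These fits took the spread of a gene over all 12 libraries. The ipdc replicates at 24 h differed widely in both shares, at 0.357% and 2.05% for photosynthesis and 4.94% and 0.283% for seed storage. Calls in these genes were therefore unlikely, and their absence cannot show that leaf or seed material was equal.

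At 7 d, 696 genes differed between Az39 and saline roots at an adjusted p under 0.05 (edgeR quasi-likelihood test, Benjamini-Hochberg over all tested genes), which is 3.69% of those tested. Of these, 444 were higher with Az39 (2.35%) and 252 were lower (1.34%). The higher side reached further, with 138 genes at least 4-fold higher and 29 at least 16-fold higher, against 16 genes at least 4-fold lower. The median log2 fold change was 1.47 among the genes called higher and -1.23 among those called lower, beside 0.05 over all tested genes. Both Az39 libraries lay on the same side of both saline libraries in each of the 696 genes, which the call nearly fixes, and over all 18867 tested genes in 5786 on the higher and 4972 on the lower side. Jasmonate genes, the peptide receptor PEPR1, tryptophan synthesis genes and a pair of glutathione transferases were among the genes that rose. Genes for iron uptake, ammonium transport, water channels and cytokinin synthesis and transport were among those that fell. WRKY transcription factors went both ways, with WRKY18, WRKY30 and WRKY38 called higher. WRKY11, WRKY27 and WRKY42 were called lower, with log2 fold changes of -1.34, -1.83 and -2.03.

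**Figure D1:**
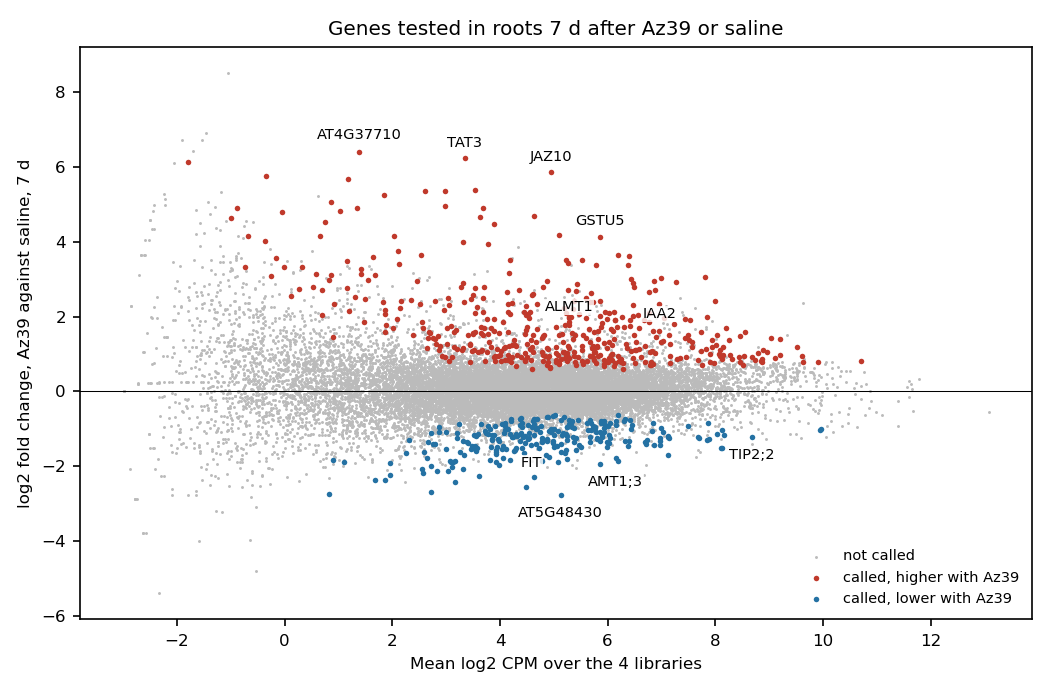
Each point is one of the 18867 tested genes, with its mean log2 CPM over the 4 libraries on the x axis and its log2 fold change, Az39 against saline at 7 d, on the y axis. Red marks the 444 genes called higher, blue the 252 called lower and grey the rest, and the largest changes lie on the higher side.

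When 1 of the 4 libraries was left out, 221 genes were called with saline replicate 1 omitted and 7 with saline replicate 2 omitted, against 227 and 593 with Az39 replicate 1 or 2 omitted. A group left with 1 library was then assumed to vary like the other groups. Omitting a library outside the comparison also moved the count, to 323 and 325 for the ipdc replicates at 7 d, 407 and 405 for Az39 at 24 h, and 618 and 645 for saline at 24 h. The direction of all 696 differences was the same in the 4 fits that omitted a library of the comparison. Of the calls, 262 were kept in none of the 4 fits, 270 in 1, 76 in 2, 81 in 3 and 7 in all 4. The 7 were JAZ10, GSTU5, GSTU6, MGD1, MES5, RSH2 and PROPEP4, so every other call given here was lost when the second saline replicate was left out.

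GSTU5 (AT2G29450) and GSTU6 (AT2G29440) are tau class glutathione transferases, enzymes that join glutathione to reactive or foreign molecules. GSTU5 stood at 18.6 and 9.64 CPM (gene counts scaled to library size with TMM factors) in saline roots and at 244 and 257 in Az39 roots, a log2 fold change of 4.14 ± 0.30 (SE, 2 libraries per group, adjusted p = 0.00055). GSTU6 stood at 13 and 14 CPM in saline roots and at 178 and 133 in Az39 roots (3.53 ± 0.24, adjusted p = 0.00055). MGD1, which makes the main galactolipid of plastid membranes, had raw counts (not scaled to library size) of 389 and 410 against 1933 and 1841 (2.51 ± 0.21, adjusted p = 0.00133). In all 3 genes the lowest Az39 library was several times the highest saline library. MES5, annotated as a methyl esterase, rose from 18.4 and 17.5 CPM to 89.9 and 101 (2.41 ± 0.18, adjusted p = 0.000695). RSH2, annotated as root hair specific, rose from 5.42 and 4.43 CPM to 32.3 and 35.9 (2.79 ± 0.24, adjusted p = 0.00133). PROPEP4, the precursor of an elicitor peptide of the family that plants release on damage, rose from 10.8 and 8.95 CPM to 55.6 and 65.9 (2.62 ± 0.19, adjusted p = 0.00055). Over the 4 fits that left out a library, the log2 fold change ran from 3.74 to 4.69 for GSTU5 and from 2.50 to 2.51 for MGD1, and for GSTU6 it was at most 3.72 and above 3 in each. GSTU5 and GSTU6 are neighbouring family members of similar sequence, and how the counting treated reads that match both is not given in the sources used here.

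The 5' flanks of JAZ2, JAZ8 and JAZ10 are shown because JAZ genes, which rose with Az39, are known targets of MYC2, which binds the G-box CACGTG. The windows are the 250 bases before the annotated gene start in RefSeq TAIR10.1, written 5' to 3' on the strand of the gene, with any G-box in capitals.
JAZ2, chr1:28150447-28150696, minus strand: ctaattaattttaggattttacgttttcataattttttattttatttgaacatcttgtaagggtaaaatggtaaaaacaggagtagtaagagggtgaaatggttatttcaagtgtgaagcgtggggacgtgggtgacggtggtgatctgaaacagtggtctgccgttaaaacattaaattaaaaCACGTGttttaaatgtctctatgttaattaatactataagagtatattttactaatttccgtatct
JAZ8, chr1:10596102-10596351, plus strand: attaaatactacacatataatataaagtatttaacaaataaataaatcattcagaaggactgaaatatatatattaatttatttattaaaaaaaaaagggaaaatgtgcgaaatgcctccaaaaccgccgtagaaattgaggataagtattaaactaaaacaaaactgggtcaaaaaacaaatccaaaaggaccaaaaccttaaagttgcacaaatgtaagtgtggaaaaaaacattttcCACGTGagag
JAZ10, chr5:4218536-4218785, plus strand: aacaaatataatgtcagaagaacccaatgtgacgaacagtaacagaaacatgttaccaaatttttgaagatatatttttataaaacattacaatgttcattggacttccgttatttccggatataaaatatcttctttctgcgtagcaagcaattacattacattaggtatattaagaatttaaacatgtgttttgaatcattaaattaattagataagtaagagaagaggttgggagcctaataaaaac
The G-box, which reads the same on both strands, began 66 bases before the start of JAZ2 and 10 bases before that of JAZ8. These letters did not occur in the JAZ10 window, which also overlaps the annotated locus AT5G02045. The G-box occurred in 1444 of the 18852 tested genes with such a window (7.66%), in 9.68% of the genes called higher, in 5.16% of those called lower, in 8 of the 50 tested jasmonate genes (16%) and in 5 of the 18 jasmonate genes that rose (27.8%). The G-box was not alone in this. In the same 18 genes the auxin response element (TGTCTC or TGTCGG) occurred in 7 (38.9%, against 14.9% of all windows). The TGACG motif occurred in 5 (27.8%, against 19.5%), the W-box (TTGACC or TTGACT) in 3 (16.7%, against 28.3%) and the GCC box in 0. Among the genes called higher the W-box occurred in 36.7%. These shares are descriptions of the windows and were not tested.

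Jasmonate signalling held more calls than any other of the 36 gene lists examined. Of 50 tested genes on 3 lists (synthesis, signalling, and turnover with output), 18 rose and 1 fell, where 2.35% of all tested genes rose and 1.34% fell. The median log2 fold change was 1.89 over the 14 synthesis genes, 1.22 over the 21 signalling genes and 1.98 over the 15 turnover and output genes, beside 0.05 over all genes. Together the genes of the 3 lists took 0.346% and 0.229% of the counts in the saline libraries and 0.586% and 0.839% in the Az39 libraries. The 2 treatments did not overlap in that share. In the ipdc libraries at 7 d it was 0.592% and 0.455%, above both saline libraries, and the first lay above the first Az39 library.

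Among the JAZ repressors, JAZ10 (AT5G13220) stood at 6.97 and 1.92 CPM in saline roots and at 193 and 326 in Az39 roots, a log2 fold change of 5.87 ± 0.64 (adjusted p = 0.00542). JAZ9 rose from 5.73 and 5.22 CPM to 40.9 and 83.6 (3.51 ± 0.41, adjusted p = 0.00653), and JAZ2 from 122 and 43.5 CPM to 584 and 792 (3.06 ± 0.44, adjusted p = 0.0122). In JAZ10 and JAZ2 the first saline library was well above the second, and in JAZ9 the saline libraries were close. JAZ8, which lacks the canonical degron and is more stable, stood at 6.77 and 1.13 CPM against 41.5 and 135 (4.48 ± 0.77, adjusted p = 0.0197). JAZ7 had raw counts of 336 and 65 against 1325 and 4714 (4.18 ± 0.84, adjusted p = 0.0316), and JAZ6 at 71.2 and 27.6 CPM against 155 and 470 (2.66 ± 0.58, adjusted p = 0.0396). In these 3 genes the second Az39 library was at least 3 times the first, and the lower of the Az39 libraries still lay above both saline libraries. AT3G22275, annotated as a jasmonate ZIM-domain protein, rose from 0.568 and 0.492 CPM to 15 and 26.2 (5.26 ± 0.75, adjusted p = 0.0117), and JAZ3 rose by 1.22 ± 0.26 (adjusted p = 0.0367). JAM1, a bHLH factor that counteracts MYC2, rose from 22.1 and 11.4 CPM to 87.3 and 156 (2.87 ± 0.47, adjusted p = 0.0168). MYC2 itself, the leading activator, stood at 396 and 170 CPM against 487 and 516 and did not pass the test (0.83 ± 0.53, adjusted p = 0.372), and its relative MYC4 fell from 31.9 and 41 CPM to 14 and 22.2 (-1.01 ± 0.24, adjusted p = 0.0477). Without the second saline replicate JAZ10 alone among these was called (5.21), with JAZ9 at 3.44, JAZ2 at 2.50, JAZ7 at 3.42, JAZ6 at 2.13, JAM1 at 2.46 and MYC4 at -0.82.

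In the synthesis route, AOC1 and OPR3 rose. AOC1, an allene oxide cyclase, stood at 0.258 and 0.246 CPM in saline roots, 5 counts in each library, and at 14.6 and 12.3 CPM in Az39 roots (5.70 ± 0.87, adjusted p = 0.0132). OPR3, the reductase that follows it, rose from 63 and 29.3 CPM to 305 and 455 (3.04 ± 0.41, adjusted p = 0.0102). Other enzymes of the route missed the threshold. The lipoxygenase LOX4 had a log2 fold change of 3.86 ± 0.92 (adjusted p = 0.0509), LOX3 of 3.58 (adjusted p = 0.0572), the cyclase AOC3 of 2.04 ± 0.51 (adjusted p = 0.056) and the synthase AOS of 1.97 (adjusted p = 0.0709). Their saline replicates were far apart, as in LOX4 at 15.3 and 0.689 CPM against 103 and 128 with Az39. LOX2, a leaf lipoxygenase, stood at 0.413 and 1.13 CPM against 0.708 and 3.74, which overlapped. AOC1, AOC2 and AOC3 are neighbouring genes of the same family and may share reads. Neither AOC1 (5.66) nor OPR3 (2.59) was called without the second saline replicate, and AOC1 (5.73) was not called without the first.

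Genes that inactivate the hormone rose as well. The amidohydrolases ILL6 and IAR3, which split jasmonoyl-isoleucine, rose from 7.8 and 4.38 CPM to 43.1 and 66.2 (3.16 ± 0.36, adjusted p = 0.00641) and from 84.2 and 78.1 CPM to 160 and 245 (1.32 ± 0.27, adjusted p = 0.0321). The cytochromes P450 CYP94B1 and CYP94C1, which oxidise it, rose from 24.5 and 17.7 CPM to 60 and 62.3 (1.53 ± 0.30, adjusted p = 0.0292) and from raw counts of 59 and 52 to 257 and 1200 (16.0-fold, SE 0.84 on the log2 scale, adjusted p = 0.0353). In CYP94C1 the second Az39 library was several times the first. Among the output genes, the tyrosine aminotransferase TAT3 rose from 2.27 and 0.344 CPM to 83.6 and 113 (6.23 ± 0.73, adjusted p = 0.00653) and the transcription factor NAC055 by 2.34 ± 0.51 (adjusted p = 0.0395). AT2G38240, annotated as a 2-oxoglutarate-dependent oxygenase, rose from 0.258 and 0.246 CPM to 7.02 and 10.5 (5.08 ± 0.86, adjusted p = 0.0187). The storage protein VSP2, a common jasmonate marker in leaves, stood at 156 and 199 CPM against 240 and 280 and did not pass the test (0.55 ± 0.28, adjusted p = 0.265). The defensin gene PDF1.2 had no count in any of the 4 libraries and was not tested. None of these 7 genes was called without the second saline replicate, with log2 fold changes from 1.27 for IAR3 to 5.43 for TAT3, and CYP94C1 ran from 2.43 without the second Az39 replicate to 4.74 without the first.

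Of the 2 synthesis, 10 signalling and 7 turnover calls, 1, 6 and 2 were kept with saline replicate 1 omitted and 0, 1 and 0 with saline replicate 2 omitted. Omitting Az39 replicate 1 kept 2, 8 and 6, and omitting Az39 replicate 2 kept 2, 7 and 3. Without the first saline replicate the log2 fold changes were larger, at 7.07 for JAZ10, 3.98 for JAZ2, 3.69 for OPR3 and 8.12 for TAT3, since that replicate held more of these transcripts than the second.

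**Figure D2:**
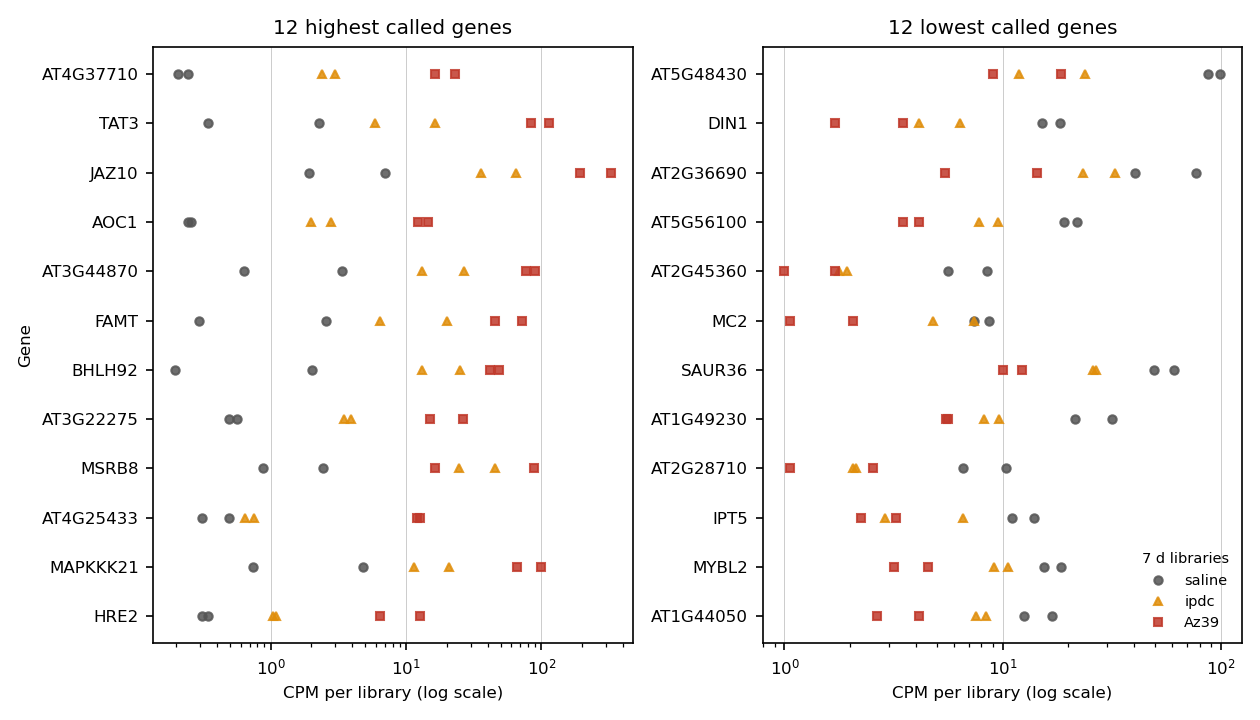
CPM in each 7 d library (x axis, log scale) of the 12 called genes with the highest log2 fold changes (left) and the 12 with the lowest (right) among genes with a mean log2 CPM of at least 1. Grey circles are saline, orange triangles ipdc and red squares Az39, 2 libraries each. No overlap of CPM between Az39 and saline was a condition of the choice, so these libraries are apart in every gene.

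The 12 genes with the highest log2 fold changes included 4 of the genes above (TAT3, JAZ10, AOC1 and AT3G22275). The highest was AT4G37710, annotated as a VQ motif protein, a family of partners of WRKY factors, at 0.207 and 0.246 CPM against 23.1 and 16.3 (6.39 ± 0.57, adjusted p = 0.00161). The methyltransferase gene FAMT (AT3G44860) rose from 2.58 and 0.295 CPM to 45.8 and 72.4 (5.36 ± 0.88, adjusted p = 0.0175), and its neighbour AT3G44870, of the same family and with possible sharing of reads, rose by 5.38 ± 0.72 (adjusted p = 0.0102). AT4G25433, annotated as a LysM domain protein, the fold that binds chitin and peptidoglycan, rose from 0.31 and 0.492 CPM to 12 and 12.6 (4.91 ± 0.45, adjusted p = 0.00182). HRE2, an ethylene response factor known from low oxygen, rose from 0.31 and 0.344 CPM to 12.6 and 6.43 (4.83 ± 0.62, adjusted p = 0.00828). The rest were the transcription factor gene BHLH92 (5.35), the methionine sulfoxide reductase MSRB8 (4.97) and the kinase MAPKKK21 (4.90). None of these 8 was called without the second saline replicate, with log2 fold changes from 4.10 for MAPKKK21 to 6.52 for AT4G37710, and without the first the values of FAMT and BHLH92 were 7.60 and 7.78.

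Immune genes moved in part. Of 35 tested genes of pattern immunity, 4 rose and 1 fell, with a median log2 fold change of 0.46, where 2.35% of all tested genes rose and 1.34% fell. WRKY30 rose from 1.76 and 0.344 CPM to 25 and 12.7 (4.16 ± 0.70, adjusted p = 0.0187) and WRKY18 from 29.3 and 13.4 CPM to 240 and 300 (3.66 ± 0.50, adjusted p = 0.0105), both transcription factors of the immune response. PEPR1, the receptor of the PROPEP peptides, rose from 99.7 and 40.9 CPM to 290 and 259 (1.96 ± 0.37, adjusted p = 0.0271), and PROPEP1, which encodes one of its ligands, 2.84-fold (SE 0.36 on the log2 scale, adjusted p = 0.0496). WRKY11 fell from 137 and 119 CPM to 47.9 and 53.7 (-1.34 ± 0.22, adjusted p = 0.018). Of 23 salicylic acid genes, 2 rose, EDS5, which exports the precursor from plastids (21.4 and 18 CPM against 64.3 and 90.3, 1.97 ± 0.25, adjusted p = 0.00869), and WRKY38 (3.87 and 1.33 CPM against 49 and 82.9, 4.66 ± 0.59, adjusted p = 0.00811). The marker PR1 had no count in any of the 4 libraries. Among 11 tested defence protein genes, only the chitinase CHIV passed, and it fell from 25.6 and 24.5 CPM to 8.49 and 11.5 (-1.33 ± 0.28, adjusted p = 0.0371). None of the 18 ethylene genes was called by edgeR, while 6 had an unadjusted p under 0.05 and DESeq2 and limma-voom called 1 each. These 8 calls were lost without the second saline replicate, with log2 fold changes from 1.16 for PROPEP1 to 4.08 for WRKY38 among those that rose, -1.36 for CHIV and -1.44 for WRKY11. PROPEP1 was also lost when saline replicate 1 (1.95) or Az39 replicate 2 (0.98) was omitted.

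Tryptophan synthesis genes rose with part of the auxin response. Of 19 tested genes of tryptophan and auxin synthesis, 4 rose, where 2.35% of all tested genes rose, and all 4 act in the route to tryptophan. ASA1 and ASB1, the subunits of anthranilate synthase, rose from 65.8 and 49.7 CPM to 185 and 235 (1.87 ± 0.28, adjusted p = 0.0124) and from 36.5 and 35.8 CPM to 130 and 142 (1.91 ± 0.22, adjusted p = 0.00641). PAT1, the enzyme after them, rose by 1.33 ± 0.26 (adjusted p = 0.0297), and AT2G04400, annotated as an aldolase-type barrel protein, by 0.77 ± 0.15 (adjusted p = 0.0316). The auxin synthesis gene TAA1 stood at 10.6 and 9.05 CPM against 16.6 and 8.55, which overlapped (0.36 ± 0.29, adjusted p = 0.488). Of 29 auxin response genes, 2 rose, both Aux/IAA repressors that auxin induces. IAA2 rose from 66.4 and 77 CPM to 265 and 175 (1.62 ± 0.20, adjusted p = 0.00811), and IAA19 from 8.63 and 6.79 CPM to 16.8 and 16.5 (1.11 ± 0.21, adjusted p = 0.0276). IAA5, GH3.3 and LBD16, which auxin also induces, did not pass, at log2 fold changes of 2.75 ± 0.73, 1.90 ± 0.59 and -0.29 ± 0.37. The auxin transporter ABCB21 rose by 1.52 ± 0.28 (adjusted p = 0.0238), the one call among 16 transport genes. Of the 4 tryptophan calls 2, 0, 2 and 3 were kept and of the 2 auxin response calls 1, 0, 1 and 1, without the first and second saline and the first and second Az39 replicates in that order. With saline replicate 2 omitted ASB1 was at 1.89, IAA2 at 1.73 and IAA19 at 0.95.

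Other lists held few calls, where 2.35% of all tested genes rose and 1.34% fell. GGP1 and IGMT2, which act in the synthesis and modification of indole glucosinolates, rose by 1.48 ± 0.25 (adjusted p = 0.0187) and 1.26 ± 0.27 (adjusted p = 0.0379) among 24 tested genes of indole glucosinolates and camalexin, while the 17 genes of aliphatic glucosinolates and the 14 of endoplasmic reticulum bodies held no call by edgeR or limma-voom (4 and 3 had an unadjusted p under 0.05, and DESeq2 called 2 and 1). IGMT2 and its relative IGMT1 may share reads. The phytoglobin HB1, induced in low oxygen, rose from 6.46 and 6.89 CPM to 16 and 24.2 (1.59 ± 0.32, adjusted p = 0.0302). With HRE2 it was the second call among 15 hypoxia genes, whose median was 0.17. MYB12, an activator of flavonol synthesis, rose by 1.43 ± 0.23 (adjusted p = 0.017), and CPC, which promotes root hair fate, by 1.49 ± 0.30 (adjusted p = 0.0302). ALMT1, the channel through which roots release malate, rose from 26 and 15.8 CPM to 60.9 and 90.3 (1.86 ± 0.29, adjusted p = 0.0143). In its list STOP2, a homologue of the transcription factor that activates ALMT1, fell from 30.8 and 35.6 CPM to 9.49 and 13.9 (-1.50 ± 0.33, adjusted p = 0.0419). All 7 calls were lost without the second saline replicate, with values from 1.25 for IGMT2 to 1.63 for HB1 and of -1.40 for STOP2, and IGMT2 was at 0.68 without the first Az39 replicate.

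**Figure D3:**
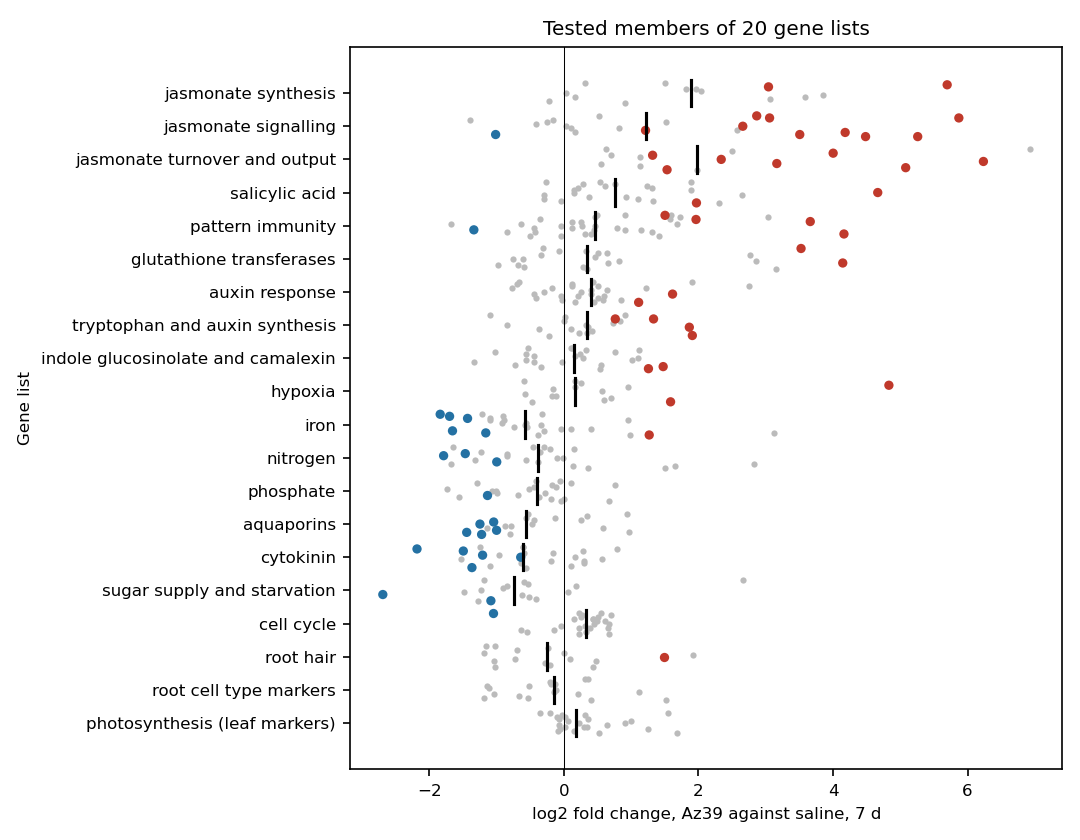
log2 fold changes, Az39 against saline at 7 d (x axis), of the tested members of 20 gene lists (y axis). Each point is a gene, red where called higher, blue where called lower and grey where not called, and the black bar is the median of the list. The 3 jasmonate lists lie furthest to the right, and the sugar, cytokinin, iron and aquaporin lists have medians between -0.73 and -0.57.

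Iron uptake genes fell. Of 26 tested iron genes, 5 fell and 1 rose, where 1.34% of all genes fell, and the median was -0.57. In bulk roots, fewer cells of a type and less RNA per cell cannot be told apart. FIT, the bHLH factor that activates iron uptake in the epidermis, stood at 36.3 and 42 CPM in saline roots and at 13 and 16.1 in Az39 roots (-1.43 ± 0.20, adjusted p = 0.011). Its targets FRO2, the ferric reductase, and IRT1, the iron transporter, fell from 23.7 and 28.7 CPM to 7.43 and 7.24 (-1.84 ± 0.42, adjusted p = 0.0451) and from raw counts of 1175 and 1408 to 340 and 341 (-1.65 ± 0.37, adjusted p = 0.0432). In all 3 genes the replicates of a treatment were close to each other. FRD3, which loads citrate into the xylem for iron transport, fell from 22 and 14.1 CPM to 5.37 and 5.74 (-1.70 ± 0.34, adjusted p = 0.0321), and the vacuolar zinc transporter MTP3 by 1.16 on the log2 scale (SE 0.25, adjusted p = 0.038). FER3, which encodes the iron storage protein ferritin, rose from 48.8 and 55.5 CPM to 128 and 123 (1.27 ± 0.24, adjusted p = 0.0271). The other regulators of the route did not pass, with log2 fold changes of -1.09 for BHLH39, -0.57 for BHLH100 and -0.55 for BHLH38. Of the 6 iron calls, 1 was kept with saline replicate 1 omitted, 0 with saline replicate 2 or Az39 replicate 1 omitted and 2 with Az39 replicate 2 omitted, and the log2 fold change of FIT ran from -1.59 to -1.28 over those fits.

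Of 23 nitrogen genes, 3 fell and none rose, with a median of -0.38, where 1.34% of all tested genes fell. The ammonium transporters AMT1;1 and AMT1;3 fell from 156 and 122 CPM to 44.9 and 56 (-1.46 ± 0.28, adjusted p = 0.0276) and from 131 and 142 CPM to 24.5 and 55 (-1.78 ± 0.36, adjusted p = 0.0325). LBD38, a repressor of nitrate-responsive genes that nitrogen supply induces, fell from 110 and 135 CPM to 57.4 and 65.6 (1.99-fold lower, SE 0.22 on the log2 scale, adjusted p = 0.0443). The nitrate transporter gene NRT2.1 stood at 12 and 7.97 CPM against 1.59 and 4.81 and did not pass (-1.65 ± 0.75, adjusted p = 0.21). Among 22 phosphate genes, whose median was -0.39, the one call was PHO1, which loads phosphate into the xylem and fell from 355 and 426 CPM to 159 and 195 (-1.14 ± 0.23, adjusted p = 0.0325). The uptake transporter PHT1;1 stood at 375 and 373 CPM against 67.6 and 187 and missed the threshold (-1.55 ± 0.42, adjusted p = 0.067). Of these 4 calls, AMT1;3 alone was kept in a fit with a library left out, without the second Az39 replicate (-2.49), and in the 4 fits AMT1;1 ran from -1.63 to -1.28 and PHO1 was at -1.30 or nearer 0.

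Water channel genes fell in part. Of 19 tested aquaporins, 5 fell and none rose, where 1.34% of all tested genes fell, and the median was -0.57. The tonoplast channels TIP2;2, TIP2;3 and TIP1;2 fell, TIP2;2 from 635 and 631 CPM to 215 and 329 (-1.22 ± 0.25, adjusted p = 0.0344), TIP2;3 by 1.44 on the log2 scale (adjusted p = 0.0465) and TIP1;2 from raw counts of 25919 and 30307 to 11152 and 12169 (adjusted p = 0.0429). The plasma membrane channels PIP2;4 and PIP2;1 fell by 1.24 (adjusted p = 0.0452) and by 1.04 (adjusted p = 0.0473). The family did not move as one, since PIP2;5 and PIP2;6 had log2 fold changes of 0.95 and 0.97, neither called. TIP2;2 and TIP2;3 are close relatives and may share reads. Only without the second Az39 replicate were any of the 5 kept, TIP2;3 (-1.89) and TIP2;2 (-1.56), and without the first Az39 replicate they stood at -1.10 and -0.95.

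Of 23 tested cytokinin genes, 5 fell and none rose, where 1.34% of all tested genes fell, and the median was -0.61. IPT5, an isopentenyltransferase that starts synthesis, fell from 11 and 13.9 CPM to 2.24 and 3.25 (-2.18 ± 0.44, adjusted p = 0.0303). CYP735A2, which makes the trans-zeatin form, fell from 42.2 and 67 CPM to 17.2 and 21.7 (-1.49 ± 0.31, adjusted p = 0.0347). ABCG14, which exports cytokinin from root to shoot, fell from 86.4 and 116 CPM to 40.3 and 38.4 (-1.36 ± 0.26, adjusted p = 0.0275). The response regulator ARR8 fell from 80.9 and 100 CPM to 33.5 and 45 (-1.21 ± 0.23, adjusted p = 0.0276), and the receptor AHK4 by 0.64 on the log2 scale (adjusted p = 0.0496). Among the other response regulators, ARR5 and ARR7 had log2 fold changes of -0.15 and 0.31. Without the first saline replicate 2 of the 5 calls were kept (CYP735A2 at -1.79 and ABCG14 at -1.56), without the second Az39 replicate 1 (ARR8 at -1.44), and without the second saline or the first Az39 replicate 0, where IPT5 stood at -1.94 without that Az39 replicate.

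The remaining genes that fell furthest came from several families. The lowest log2 fold change among the 252 genes called lower belonged to AT5G48430, annotated as an aspartyl protease, at 87.3 and 99.4 CPM in saline roots against 9.08 and 18.5 in Az39 roots (-2.76 ± 0.40, adjusted p = 0.0124). DIN1, a gene of darkness and sugar starvation, fell from raw counts of 356 and 308 to 29 and 56 (-2.69 ± 0.59, adjusted p = 0.0416). TPS10, of the trehalose phosphate synthase family, fell too (-1.08 ± 0.24, adjusted p = 0.0438). They were the 2 calls among 16 genes of sugar supply, whose median was -0.73, where 1.34% of all tested genes fell. SAUR36, of the small auxin-up RNA family, fell from raw counts of 952 and 1237 to 171 and 196 (-2.30 ± 0.33, adjusted p = 0.011). MC2, a metacaspase, fell from 8.68 and 7.43 CPM to 1.06 and 2.06 (-2.37 ± 0.44, adjusted p = 0.0245), and MYBL2, a repressor of anthocyanin synthesis, from 18.4 and 15.4 CPM to 4.54 and 3.18 (-2.13 ± 0.47, adjusted p = 0.0426). The cell cycle inhibitor SIM fell by 1.05 on the log2 scale (adjusted p = 0.0491), the 1 call among 25 cell cycle genes. The median of that list was 0.33, beside 0.05 over all tested genes. ABI1, a phosphatase that limits abscisic acid signalling, fell by 1.08 (adjusted p = 0.0297). These 8 calls were lost too without the second saline replicate, with values from -2.82 for DIN1 to -0.96 for SIM.

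Lists of root tissues held no call in the fit over the 12 libraries, where 3.69% of all tested genes were called. None of the 19 markers of root cell types, 18 genes of suberin and the Casparian strip, 16 of the xylem secondary wall or 21 of the root meristem and lateral roots was called in that fit by edgeR or by limma-voom. With the 7 d libraries alone edgeR called 1 cell type marker higher and 2 lower, and without both ipdc 24 h libraries 1 marker higher and 1 xylem gene lower. Of these genes 6, 2, 2 and 3 had an unadjusted p under 0.05, and DESeq2 called 0, 1, 1 and 1. Over the 19 cell type markers the median log2 fold change was -0.15 and 6 lay above 0. The markers given next were all below 0, those above 0 are not given, and this choice does not stand for the list. The phloem markers SUC2 and SEOR1 stood at 31.4 and 24.1 CPM against 13.7 and 11.5 and at 26.4 and 25.3 CPM against 11 and 13, log2 fold changes of -1.13 and -1.11 that missed the threshold (adjusted p = 0.15 and 0.167). The root hair markers COBL9 and EXPA7 were at -1.19 and -1.03 (adjusted p = 0.218 and 0.146), and the endodermis marker CASP1 at -0.66 (adjusted p = 0.232). The part of such cells in the changes of transport genes was not tested. Among 13 genes of oxidative stress, 9 of terpene synthesis and 9 of heat shock there was also no call by edgeR or limma-voom, with 6, 2 and 0 at an unadjusted p under 0.05 and 1, 1 and 0 called by DESeq2.

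Against the same saline libraries, ipdc roots at 7 d had 3 genes called by edgeR (0.0159% of those tested, with 1980 at an unadjusted p under 0.05), while DESeq2 called 379 and limma-voom 4. The 3 were PROPEP4 and ALMT1 higher and AT2G16005, annotated as a lipid recognition protein, lower (0.0106% higher and 0.0053% lower). The 2 contrasts share their saline libraries, so their values are given side by side only. PROPEP4 had a log2 fold change of 2.62 ± 0.19 with Az39 and 1.90 ± 0.18 with ipdc (adjusted p = 0.0229 for ipdc), and ALMT1 of 1.86 ± 0.29 and 2.55 ± 0.29 (adjusted p = 0.0385 for ipdc). JAZ10 stood at 65.3 and 36 CPM in ipdc roots, above both saline and below both Az39 libraries, with a log2 fold change of 3.51 that missed the threshold (adjusted p = 0.137). The jasmonate synthesis list had a median fold of 3.26 with ipdc and 3.71 with Az39, and the signalling and turnover lists had median log2 fold changes of 0.99 and 0.59 with ipdc, against 1.22 and 1.98 with Az39. FIT stood at 20.8 and 19.5 CPM in ipdc roots, AMT1;1 at 64.7 and 51.4 and TIP2;2 at 282 and 250, each below both saline libraries.

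Tested directly, 22 genes were higher in Az39 than in ipdc roots at 7 d and 0 were lower (edgeR, 0.117% of those tested, with 1743 at an unadjusted p under 0.05), while limma-voom called 35 higher and 0 lower and DESeq2 154 higher and 30 lower. Of the 22, 20 were also called between Az39 and saline, where 3.69% of all tested genes were called. Both tests use the same Az39 libraries, so the 2 sets of calls are not independent. GSTU6 stood at 24.1 and 17.9 CPM in ipdc roots against 178 and 133 with Az39, a log2 difference of 2.89 ± 0.23 (adjusted p = 0.0043). GSTU5 stood at 26.4 and 24.5 CPM in ipdc roots against 244 and 257 with Az39 (9.82-fold, SE 0.29 on the log2 scale, adjusted p = 0.0048). IAA2 stood at 76.6 and 71.6 CPM against 265 and 175 (1.57 ± 0.20, adjusted p = 0.0314), and IAA18, a further Aux/IAA gene, at 26.2 and 21.4 CPM against 60 and 53.4 (1.25 ± 0.17, adjusted p = 0.0327). In IAA2, IAA18 and AT1G78830, annotated as a mannose-binding lectin, the ipdc value lay within 0.1 of saline on the log2 scale. ABR1, an ERF family factor, differed by 3.11 ± 0.41 (adjusted p = 0.0314), and AT4G25433, the LysM domain protein, by 4.12 ± 0.44 (adjusted p = 0.0185). The anion channel gene SLAH2 had raw counts of 173 and 146 with ipdc against 656 and 639 with Az39 (1.89 ± 0.23, adjusted p = 0.0312). MGD1, MES5 and RSH2 were also among the 22, and JAZ10 was not (2.36 ± 0.53, adjusted p = 0.249), nor were FIT (-0.47 ± 0.20, adjusted p = 0.533), AMT1;1 (-0.20, adjusted p = 0.845) or TIP2;2 (0.03, adjusted p = 0.979). Strain differences numbered 2 and 6 with Az39 replicate 1 or 2 omitted and 3 and 0 with ipdc replicate 1 or 2 omitted. Over these fits the log2 difference ran from 3.24 to 3.35 for GSTU5, from 2.66 to 3.12 for GSTU6, from 1.24 to 1.83 for IAA2 and for ABR1 it was at least 2.57.

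**Figure D4:**
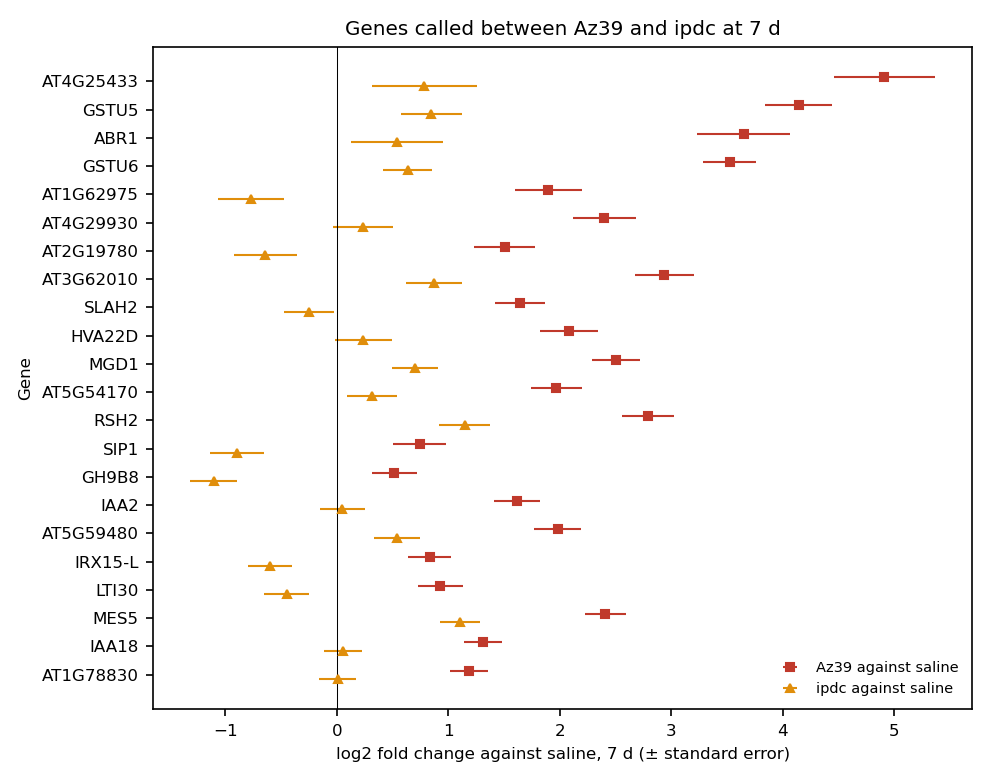
log2 fold change against saline at 7 d, ± standard error (x axis), of the 22 genes called between the strains (y axis), for Az39 (red squares) and ipdc (orange triangles), 2 libraries per group. Both contrasts share the saline libraries. The genes were chosen as called higher with Az39 than with ipdc, so each Az39 value lies to the right by that choice.

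The promoter window of GSTU6 is shown because tau class glutathione transferases are known for induction through TGACG motifs, which TGA factors bind. It is the 250 bases before the annotated start in RefSeq TAIR10.1, with the motif in capitals.
GSTU6, chr2:12621232-12621481, minus strand: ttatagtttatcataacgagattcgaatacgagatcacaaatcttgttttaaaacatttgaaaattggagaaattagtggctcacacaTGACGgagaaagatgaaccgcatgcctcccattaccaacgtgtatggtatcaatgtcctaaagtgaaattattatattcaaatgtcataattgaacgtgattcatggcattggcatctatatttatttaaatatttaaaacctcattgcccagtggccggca
The motif lay 162 bases before the start. Searched on both strands, TGACG occurred in 3667 of the 18852 windows of tested genes (19.5%), in 20.3% of those of genes called higher with Az39 and in 5 of the 22 windows of the genes higher in Az39 than in ipdc roots (22.7%).

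At 24 h the contrast of Az39 with saline called 0 genes by edgeR and limma-voom and 2 by DESeq2, with 249 at an unadjusted p under 0.05 in edgeR. The difference between the Az39 effects at 7 d and 24 h was itself called for 8 genes, all with the larger change at 7 d (edgeR, 0.0424% of those tested, with 2235 at an unadjusted p under 0.05). They were GSTU5, GSTU6, MGD1, MES5, PROPEP4, AT3G62010, AT4G37710 and AT5G20190. GSTU5 had raw counts of 267 and 271 in the saline libraries at 24 h, of 18649442 and 21541793 counts in all, and of 97 and 153 in the smaller Az39 libraries, of 9665704 and 14289186. After scaling, the log2 fold change was -0.34 ± 0.28 at 24 h and 4.14 ± 0.30 at 7 d (difference 4.49 ± 0.40, adjusted p = 0.0114). PROPEP4 stood at 12.4 and 12.6 CPM against 15.5 and 12.4 at 24 h (difference 2.46 ± 0.25, adjusted p = 0.0154). JAZ10 stood at 4.83 and 4.35 CPM against 6.89 and 3.54 at 24 h, and its difference between times missed the threshold (5.71 ± 0.82, adjusted p = 0.0582). TIP2;2 stood at 162 and 255 CPM in saline roots at 24 h and at 635 and 631 at 7 d, with Az39 roots at 158 and 156 and then at 215 and 329, and its difference between times was -0.81 ± 0.36 (adjusted p = 0.41). The number of calls between times was 40 without the first 7 d saline replicate and 1 without the second, 3 and 2 without the first and second Az39 replicates at 7 d, and 0 without the first saline or either Az39 replicate at 24 h.

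**Figure D5:**
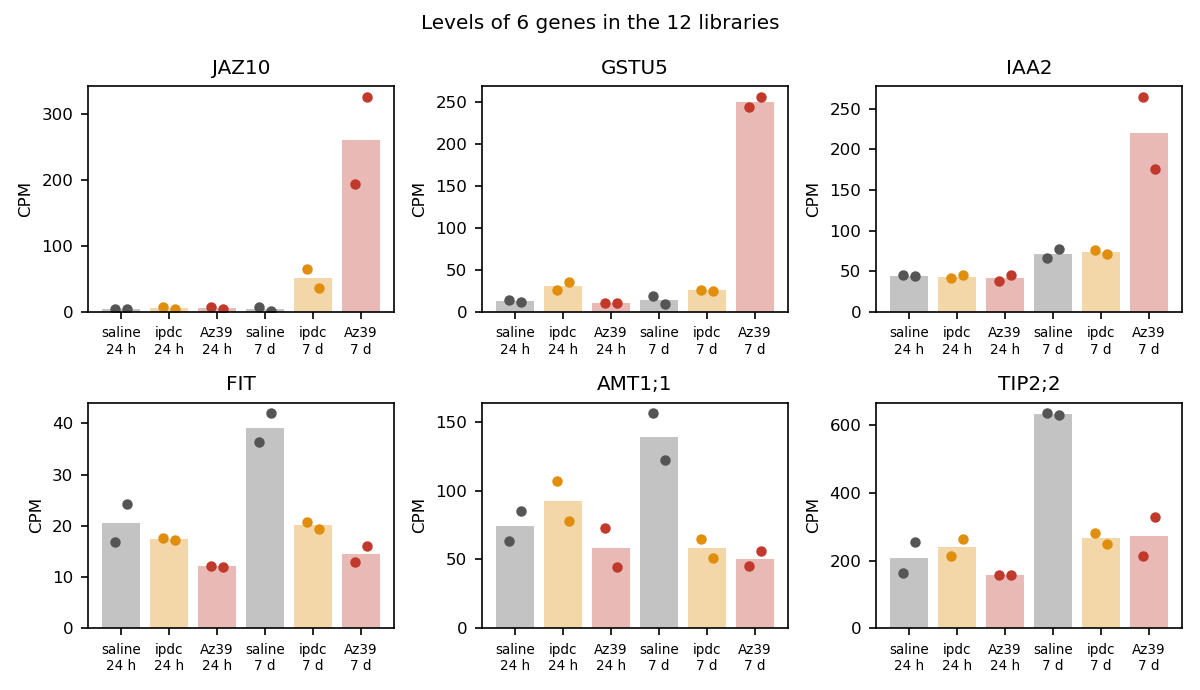
CPM (y axis) of 6 genes in the 12 libraries, by treatment and time (x axis), with bars for the mean of 2 libraries and points for the libraries. JAZ10, GSTU5 and IAA2 are highest in the Az39 libraries at 7 d, and FIT, AMT1;1 and TIP2;2 are highest in the saline libraries at 7 d.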

How the data were processed

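Whole-root RNA was sequenced as 150 bp single-end reads from 12 libraries. The authors deposited a table of raw read counts per gene, made with HISAT2 2.2.1 and featureCounts on TAIR10, per the submitters' processing notes; its strand and multi-mapping settings were not given in the sources used. The library kit named in the labels' protocols does not mark strand, so reads of overlapping antisense genes cannot be told apart. From the counts, edgeR 4.0.16 (R 4.3.3) computed TMM factors, kept genes by filterByExpr (minimum count 10, minimum total 15, proportion 0.7, 6 groups) and fitted quasi-likelihood models with 1 mean per group over the 12 libraries (6 residual degrees of freedom). All tests were two-sided, p-values were Benjamini-Hochberg adjusted over the 18867 tested genes, and genes were called at an adjusted p under 0.05. The standard error of a log2 fold change is its size over the square root of F, and a fitted fold change carries a prior count of 0.125. Counts of 7 d libraries ran from 14141640 to 19330423, and the biological coefficient of variation was 24.5%. Replicates are labelled as biological replicates, each a pool of root systems. Gene names came from the RefSeq annotation of TAIR10.1, which matched 21120 of 21200 identifiers, as did the promoter windows.

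Named were the 12 highest and the 12 lowest called genes with a mean log2 CPM of at least 1, up to 5 called members of each of 36 lists with the smallest p (where fewer than 2 were called, the 2 with the smallest p), a fixed set of marker genes, and the genes called between strains or times. Further list members and JAZ3, JAZ6, JAZ7, JAZ8, MYC4, CYP94C1, NAC055, FRO2 and the genes of the closing observations were chosen after their values were seen. So were WRKY27 and WRKY42. Members, lists and tests were chosen with earlier results of these data known. Results were recomputed with DESeq2 1.42.0, limma-voom 3.58.1, RLE scaling, other count filters, fewer libraries, a replicate block, each library omitted in turn and a threshold of a 1.5-fold change. The fit was tested on simulated data. Of 703 listed genes 649 were tested.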

Additional observations from a re-analysis of the deposited data

Results flagged for a closer look

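For 8 genes the log2 fold change of Az39 against saline differed between 7 d and 24 h by the test of the difference itself (edgeR quasi-likelihood test with an interaction contrast, 2 libraries per group). Each difference is the log2 fold change at 7 d minus that at 24 h. It was 4.49 for GSTU5 (adjusted p = 0.0114), 3.21 for GSTU6 (adjusted p = 0.0139), 2.46 for PROPEP4 (adjusted p = 0.0154), 2.29 for MES5 (adjusted p = 0.0174), 3.28 for AT3G62010, annotated as a metal ion-binding protein (adjusted p = 0.0174), 2.37 for MGD1 (adjusted p = 0.0384), 2.12 for AT5G20190, annotated as a tetratricopeptide repeat protein (adjusted p = 0.044), and 7.89 for AT4G37710 (adjusted p = 0.0443). AT3G62010 stood at 36.5 and 40.5 CPM in saline and 29.4 and 31.4 in Az39 roots at 24 h, and at 57.7 and 53.6 against 394 and 459 at 7 d. MGD1 stood at 19 and 14.3 CPM against 18.5 and 18 at 24 h. AT5G20190 stood at 59.2 and 67.3 CPM against 67.9 and 56.6 at 24 h, and at 54.9 and 50.7 against 207 and 244 at 7 d. In AT4G37710 the Az39 libraries at 24 h held 0 and 2 counts and the saline libraries 6 and 4, so its difference depends on the prior count. Each of the 8 was lost in at least 3 of the 8 fits that left out a library, among them those without the first saline or either Az39 replicate at 24 h, where GSTU5 stayed between 4.09 and 5.04 over all 8.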

How the results depend on the processing

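Against 696 calls (444 higher, 252 lower), DESeq2 gave 1981 (1182, 799), limma-voom 1085 (682, 403), the fit without both ipdc 24 h libraries 1204 (591 lower), the 7 d libraries alone 783 (423 lower), the replicate block 326 (190, 136), the test against a 1.5-fold change 85 (75, 10) and the 4 libraries alone 70 (49, 21). RLE scaling (725), no filter on low counts (690) and a minimum count of 50 (733) stayed within 1.5 times. The ipdc replicates at 24 h, part of the main fit, differed most from each other. Their chi-square per degree of freedom on raw counts was 104, against 15.5 to 47.8 in the other groups. Of the 696 genes, DESeq2 kept 696, limma-voom 684, RLE scaling 682, the block 292 and the 4 libraries alone 63. Leaving out 1 of the 4 libraries compared gave 7 to 593 calls, 7 to 344 higher and 0 to 249 lower, and leaving out 1 of the ipdc libraries at 7 d or of the Az39 or saline libraries at 24 h gave 323 to 645. Against 22 strain differences, DESeq2 gave 184, limma-voom 35, the block 4, the 1.5-fold test 3 and leaving out 1 of the 4 libraries compared 0 to 6. Against 8 differences between times, DESeq2 gave 373, the fit without both ipdc 24 h libraries 18, the block 0, the 1.5-fold test 5 and leaving out 1 of the 8 libraries compared 0 to 40. The replicate numbers share only a mark: same-numbered libraries of Az39 and saline at 7 d deviated from their group means with r = -0.0928 across 18867 genes (-0.0882 for Az39 with ipdc, 0.136 for saline with ipdc, -0.0456 for Az39 with saline at 24 h), so the block was not used.

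Directions changed only for uncalled genes among those named. RSL4 (0.00) was at -0.0049 with RLE scaling, -0.0037 with DESeq2, -0.27 with limma-voom, -0.001 without a filter, -0.042 at a minimum count of 50, -0.034 in the 7 d libraries, -0.027 without the ipdc 24 h libraries, -0.15 with the block and -0.026 in the 4 libraries. With 1 library left out, the log2 fold changes ran from -1.17 to 0.65 for RSL4, -3.25 to 2.29 for OLEO2, -0.42 to 4.12 for SESA1, -0.14 to 2.39 for LOX2, -0.81 to 0.10 for LBD16, -0.24 to 0.16 for PIN2, -0.20 to 0.76 for TAA1, -0.10 to 0.34 for CYP79B2 and -0.67 to 0.0002 for ASN1. The causes were not tested. With 2 libraries per group, changes close to the spread between replicates could not be called, and genes under the count minimum were not tested.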

Other observations

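Several transporters outside the lists fell with Az39 at 7 d, and they were named after their values had been seen. The zinc and metal transporter genes ZIP2, ZIP3 and ZIP5 stood at 36.2 and 27.2, 56.8 and 50.1, and 15.6 and 17.5 CPM in saline roots and at 6.02 and 12.5, 11.6 and 21.3, and 2.95 and 5.99 in Az39 roots. Their log2 fold changes were -1.78 ± 0.34 (adjusted p = 0.0269), -1.70 ± 0.29 (adjusted p = 0.0187) and -1.89 ± 0.34 (adjusted p = 0.0228). BOR1, which loads boron into the xylem, fell from 70.2 and 77.4 CPM to 20.8 and 29.1 (-1.56 ± 0.30, adjusted p = 0.0275), and SKOR, which loads potassium, from 28.6 and 30.2 CPM to 10.1 and 9.92 (-1.55 ± 0.29, adjusted p = 0.0255). GDU1, a regulator of amino acid export, fell from 52.7 and 57.3 CPM to 15 and 17.8 (-1.75 ± 0.21, adjusted p = 0.0073). The glucosinolate transporter gene GTR1 rose from 38.7 and 24.4 CPM to 177 and 334 (3.02 ± 0.39, adjusted p = 0.00869). None of these 7 was called without the second saline replicate, with values from -1.97 for ZIP2 to -1.49 for BOR1 and of 2.72 for GTR1, and without the first Az39 replicate ZIP2 was at -1.34.

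Signalling genes chosen in the same way moved both up and down. The osmosensing histidine kinase gene HK1 fell from 106 and 120 CPM to 27.2 and 31.7 (-1.94 ± 0.24, adjusted p = 0.0079), and YUC6, an enzyme of auxin synthesis, from 13.9 and 19.2 CPM to 5.19 and 3.81 (-1.88 ± 0.28, adjusted p = 0.0124). The receptor gene PSY1R fell by 1.63 on the log2 scale (SE 0.34, adjusted p = 0.0334), while PSK2, which encodes a phytosulfokine precursor, rose from 11.7 and 9.79 CPM to 56.2 and 111 (2.96 ± 0.46, adjusted p = 0.0143). CBL1, a calcium sensor, rose from raw counts of 729 and 358 to 3116 and 6305 (3.38 ± 0.51, adjusted p = 0.0128), and CNGC19, a calcium channel, from 2.53 and 0.246 CPM to 16.9 and 20.6 (3.75 ± 0.72, adjusted p = 0.0276). The hormone transporter gene ABCG40 rose from 4.44 and 3.15 CPM to 36.3 and 16.3 (2.79 ± 0.38, adjusted p = 0.0105) and stood at 5.55 and 3.84 CPM in ipdc roots, a strain difference of 2.48 that missed the threshold (adjusted p = 0.0517). The 7 calls were lost without the second saline replicate, with CBL1 at 2.94, CNGC19 at 2.88, PSK2 at 2.83, ABCG40 at 2.56, PSY1R at -1.50, YUC6 at -1.63 and HK1 at -1.85, and CNGC19 was at 6.20 without the first saline replicate.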
